A study of Mus musculus with 2 samples.

Results

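The genes described here are 39 germline and meiosis genes measured on Agilent arrays of AIMP3-depleted mouse embryonic stem cells (mESCs). They are a list of gene names, of which 38 are among the 37016 genes on the array and 31 among the 24020 genes that could be tested. They were sorted by role into 13 genes of the piRNA pathway, 9 genes of the synaptonemal complex, chromosome axis and meiotic cohesin, 7 genes of meiotic recombination, and 10 germ cell regulators and other germline genes. The cells were AIMP3f/f;cre-ERT2 mESCs, in which both alleles of *AIMP3* carry loxP sites and a Cre recombinase fused to an estrogen receptor domain acts once tamoxifen (4-OHT) is added. The AIMP3-depleted cells received 2 μM 4-OHT for 4 days, with 2 replicates, and the control cells, which carried the same alleles and the same Cre, received ethanol for the same time. Both conditions had LIF in the medium. The cells were generally kept on layers of mouse embryonic fibroblasts, whereas for incubation with drugs the methods name medium conditioned by such fibroblasts. RNA of AIMP3-depleted cells, in Cy5, was placed on 1 array per replicate (array 1 and array 2 below), each time together with the same pool of control RNA in Cy3.

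Several features of this design limit every value below. The control pool is 1 sample, and how much control cultures vary is therefore not part of any test. Each condition kept its dye on both arrays, and a gene-specific difference between the dyes cannot be told apart from an effect of the treatment. Control cells were not given 4-OHT, so effects of 4-OHT or of active Cre cannot be told apart from loss of AIMP3 either. The labels do not say whether the replicates came from separate cultures or clones, so the p-values measure only the spread between these samples, which may be technical. In bulk RNA, fewer cells that express a gene and less RNA of it per cell cannot be told apart.

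Germ cells use a set of proteins that most other cells keep silent. The piRNA pathway makes small RNAs that, bound to PIWI proteins, guide the silencing of transposons in the male germline, and Tudor-domain proteins gather its parts in granules near mitochondria. In meiosis, homologous chromosomes are cut by a topoisomerase-like enzyme, repaired on the homolog by recombinases, and held along an axis of meiotic cohesin and a zipper-like synaptonemal complex. Mouse ESCs hold many of these genes under the polycomb complex PRC1.6, which the factors MGA with MAX and E2F6 bring to DNA, and under DNA methylation, and they nonetheless transcribe some of them at measurable levels.

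The targeted gene *Eef1e1*, which encodes AIMP3, had a log2 ratio of AIMP3-depleted over control of -0.90 on array 1 and -0.90 on array 2. In each channel between 59.3% and 60.6% of the spots were well above background. All tested genes had a median log2 ratio of 0.02, and the median SD between the arrays was 0.048. All 10 pluripotency markers examined were well above background in both channels on both arrays, and at any fold 6 of them were lower and 3 higher with an adjusted p under 0.05 by limma, with a median log2 ratio of -0.22. Among the lower ones *Pou5f1* had -0.64 and -0.32, *Sox2* -0.51 and -0.54, and *Nanog* -0.31 and -0.44, and the highest was *Dppa5a* at 0.52 and 0.48. Most markers of other cell types were higher in the AIMP3-depleted cells, with 10 of 10 tested primitive endoderm markers, 6 of 9 trophectoderm markers and 7 of 9 fibroblast markers raised over 1.5-fold. The trophectoderm marker *Eomes* was lower, at -0.11 and -0.21 (adjusted p = 0.0286 by limma). The summed processed intensity of the 10 primitive endoderm markers lay between 67509 and 73453 in the control channels and between 142046 and 149747 in the depleted channels. That of the fibroblast markers was between 9675 and 9718 in control and between 16952 and 17368 in depleted cells, with *Lum* not well above background in any channel. For trophectoderm the sums were 29908 to 32033 and 86867 to 95987, with *Elf5* not well above background, and for the pluripotency markers, which moved in both directions, 117084 to 121427 and 121903 to 124988. Such sums weigh bright probes most, and the brightest pluripotency marker was *Dppa5a*, at a control log2 intensity of 17.05 and 17.04. The part of these other cell types and of the pluripotency markers in the results for germline genes was not tested.

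Of the 39 genes, 38 had a probe on the array, and *Piwil4* had no matched probe. To be tested, a gene needed a probe that stood well above background on both arrays in 1 channel or more, which held for 31 genes, and 30 of these were well above background in both channels on both arrays. For *Fkbp6* this was true of 3 of the 4 channels. The 7 other genes were not well above background in any channel, namely *Tdrd1*, *Tdrd6*, *Tdrd9*, *Asz1*, *Sycp2*, *Spo11* and *Slc25a31*. No gene was well above background on both arrays in 1 condition and on neither array in the other.

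In AIMP3-depleted mESCs, after background correction and loess normalization, germline genes that could be tested were lower than in control cells more often than higher, mostly by small amounts. *Prdm9* was the only one that was higher. At the threshold of 1.5-fold with an unadjusted p under 0.05, 1 of the 31 tested genes was lowered, the meiotic cohesin subunit *Smc1b*, and 0 were raised. Over all tested genes 0.791% were lowered and 5.53% were raised by the same rule. Smaller differences were frequent. At any fold, 18 of the 31 genes were lower and 1 was higher with an adjusted p under 0.05 by limma with Benjamini-Hochberg adjustment, whereas over all tested genes 23.7% were lower and 30.6% were higher. The median log2 ratio of the 38 genes on the array was -0.16, against 0.01 for all 37016 genes on it. On both arrays 22 of the 38 genes were negative, 6 were positive on both, and 10 had opposite signs.

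The count of lower genes depended on how the dyes were balanced. With each array centred on its median in place of loess, the median of all tested genes rose to 0.18, and 12 germline genes were then lower and 9 higher at any fold, beside 8.74% and 54.5% of all tested genes. The calls of *Rec8*, *Stag3*, *Hormad1*, *Brdt*, *Dazl* and *Tex19.1* were lost in this way, with adjusted p-values between 0.0951 and 0.419 by limma. Values with median centring are given below as they came out, with the shift of all genes to 0.18 included, so a gene called higher there can lie below the median of all tested genes. Below the median of all tested genes lay 24 of the 31 genes as reported and 27 with median centring. Across the 7 processings compared (6 for *Fkbp6*), 23 genes lay below the median of all tested genes in each one, and *Ddx4*, *Mei1* and *Prdm9* lay above it in each.

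**Figure D1:**
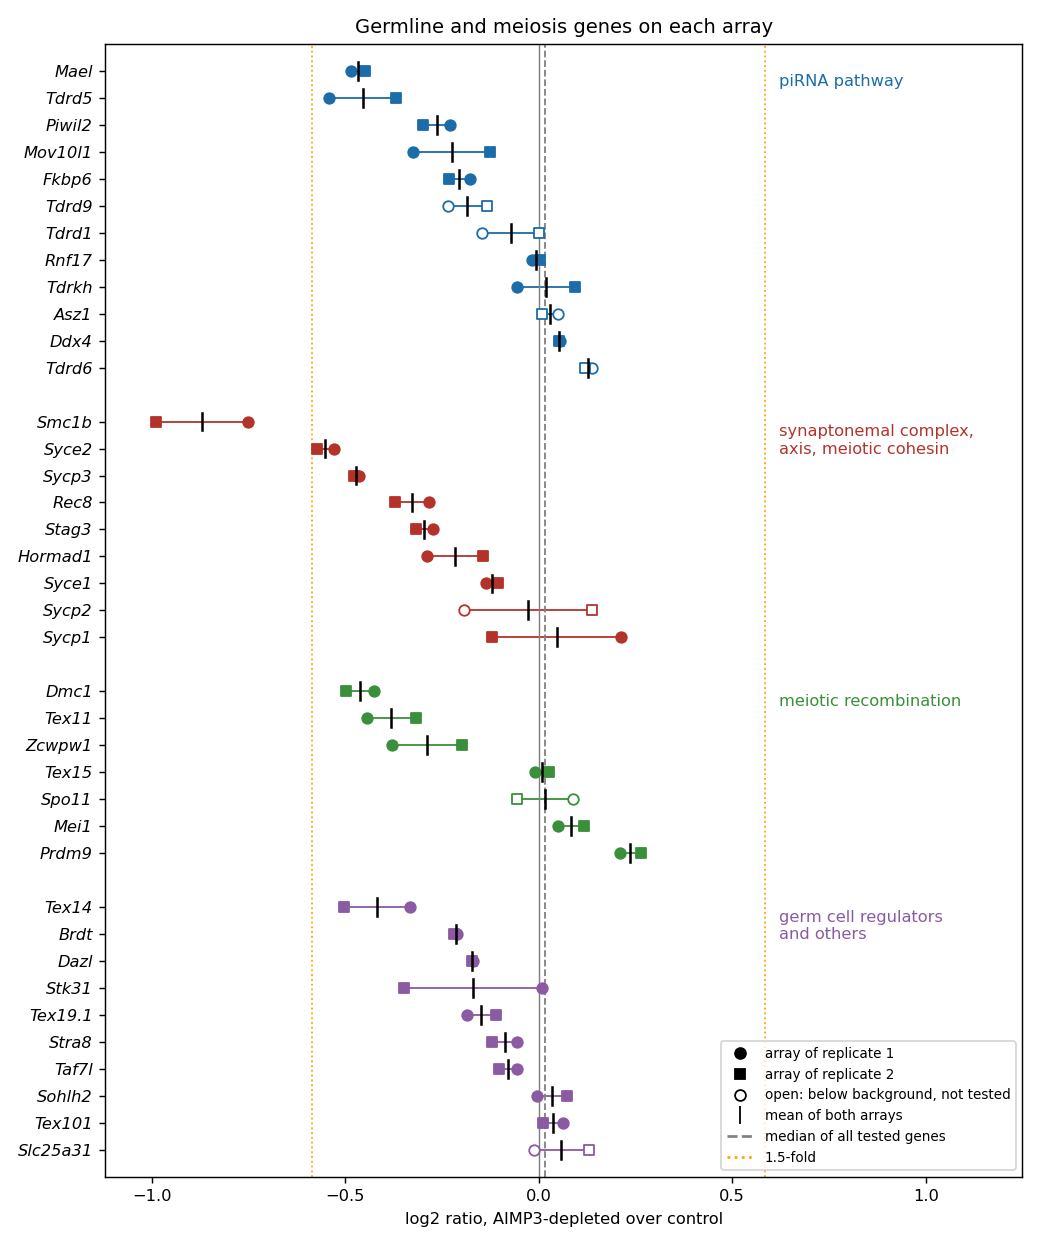
Log2 ratio of AIMP3-depleted over control (x axis) for the 38 germline and meiosis genes on the array, by role group. Circles and squares are the arrays of replicates 1 and 2, black bars their mean, open symbols genes not well above background in enough channels to be tested, the dashed line the median of all tested genes and the dotted lines 1.5-fold. Only *Smc1b* lies beyond 1.5-fold on either array, at -0.75 and -0.99, and *Prdm9* is the only tested gene above 0.2 on both.

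Promoters of some genes from each role group are shown because the letters bound by the known repressors of germline genes can be looked for in them. Of the 39 genes, 33 had a promoter in the RefSeq table (build GRCm38.p6), and the others are *Piwil2*, *Tex15*, *Rnf17*, *Tdrd6*, *Spo11* and *Tex11*. The 250 bases upstream of the most upstream start site were searched on both strands for GCGGGA, the core of E2F sites, which reads TCCCGC on the other strand, and for the E-box CACGTG, to which MGA and MAX bind. Capitals mark the matches, and 0 matches of one motif overlapped the other in these genes. All promoters printed below hold the E2F core, which is present in 12 of the 33, so they do not stand for the whole list. *Zcwpw1* and *Dazl*, which were lower and held neither motif, are not printed. *Smc1b* (chr15:85131958-85132207, minus strand) held the E2F core 47 bases upstream of the start, and *Syce2* (chr8:84871861-84872110, plus strand) held it at 115 bases. *Sycp3* (chr10:88459337-88459586, plus strand) held the E2F core and a pair of E-boxes, and *Mael* (chr1:166238745-166238994, minus strand) held 1 match of each. *Dmc1* (chr15:79605110-79605359, minus strand) held the E2F core at 240 and 13 bases, and *Tex14* (chr11:87404815-87405064, plus strand) held it at 111 bases. *Ddx4* (chr13:112652311-112652560, minus strand) and *Prdm9* (chr17:15564355-15564604, minus strand), which were not lower, also held the E2F core, and *Ddx4* an E-box.
Smc1b: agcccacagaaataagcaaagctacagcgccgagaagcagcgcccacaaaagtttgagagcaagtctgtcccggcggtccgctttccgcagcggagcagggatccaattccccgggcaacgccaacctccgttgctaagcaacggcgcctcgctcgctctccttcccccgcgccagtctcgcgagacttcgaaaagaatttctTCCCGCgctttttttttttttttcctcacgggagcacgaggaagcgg
Syce2: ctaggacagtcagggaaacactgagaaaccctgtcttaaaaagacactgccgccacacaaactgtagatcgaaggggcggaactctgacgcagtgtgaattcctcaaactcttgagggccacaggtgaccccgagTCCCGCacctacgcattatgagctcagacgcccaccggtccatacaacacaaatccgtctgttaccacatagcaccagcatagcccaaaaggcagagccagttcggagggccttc
Sycp3: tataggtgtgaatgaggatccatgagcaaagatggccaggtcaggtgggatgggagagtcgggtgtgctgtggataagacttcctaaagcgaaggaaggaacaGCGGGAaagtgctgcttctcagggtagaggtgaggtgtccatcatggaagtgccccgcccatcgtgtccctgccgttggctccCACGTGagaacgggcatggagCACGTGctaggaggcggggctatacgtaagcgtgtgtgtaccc
Mael: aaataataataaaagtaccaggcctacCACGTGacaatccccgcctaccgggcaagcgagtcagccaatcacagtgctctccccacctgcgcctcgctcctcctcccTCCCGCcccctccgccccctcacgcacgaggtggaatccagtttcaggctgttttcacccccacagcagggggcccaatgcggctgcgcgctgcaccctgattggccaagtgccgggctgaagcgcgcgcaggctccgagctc
Dmc1: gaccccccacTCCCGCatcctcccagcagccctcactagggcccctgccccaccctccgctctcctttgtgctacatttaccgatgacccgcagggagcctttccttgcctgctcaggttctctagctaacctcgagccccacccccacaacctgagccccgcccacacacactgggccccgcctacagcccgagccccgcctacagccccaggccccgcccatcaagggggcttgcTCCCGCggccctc
Tex14: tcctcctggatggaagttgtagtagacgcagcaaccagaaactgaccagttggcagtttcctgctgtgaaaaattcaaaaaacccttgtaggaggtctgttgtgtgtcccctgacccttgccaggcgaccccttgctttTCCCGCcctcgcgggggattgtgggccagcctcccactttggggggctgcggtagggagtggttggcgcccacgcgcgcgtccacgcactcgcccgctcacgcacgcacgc
Ddx4: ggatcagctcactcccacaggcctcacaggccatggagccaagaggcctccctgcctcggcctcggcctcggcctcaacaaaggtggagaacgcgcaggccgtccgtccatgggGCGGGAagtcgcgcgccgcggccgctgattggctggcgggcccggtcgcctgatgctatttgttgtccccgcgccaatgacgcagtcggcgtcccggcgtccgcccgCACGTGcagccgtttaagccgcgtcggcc
Prdm9: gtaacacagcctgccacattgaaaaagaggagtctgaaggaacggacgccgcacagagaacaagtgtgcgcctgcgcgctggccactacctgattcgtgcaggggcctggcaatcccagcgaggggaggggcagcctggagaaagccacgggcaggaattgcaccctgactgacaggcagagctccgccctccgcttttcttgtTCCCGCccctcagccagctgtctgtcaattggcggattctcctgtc

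The E2F core was present in 12 of the 33 promoters (36.4%) and the E-box in 14 (42.4%). Among the promoters of all tested genes in the table the shares were 28.3% and 8.20%, and among all 27025 promoters they were 16.9% and 6.04%. Of the 16 genes with a promoter that were lower at any fold, 10 held the E2F core and 7 the E-box. Of the 11 that were tested and not lower, 2 held the E2F core and 4 the E-box, and of the 5 not above background, 0 and 3. *Piwil4*, which has no probe, is in none of these sets. For the E2F core these shares are 62.5% in the lower genes and 18.2% in those not lower, and the difference between these small sets was not tested. The observed-over-expected CpG ratio of the 250 bases had a median of 0.72 in the lower genes and 0.74 in those tested and not lower, against 0.69 for the promoters of all tested genes. A match of letters is a description of the sequence and does not show that a factor binds there.

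Genes of the chromosome axis, the synaptonemal complex and meiotic cohesin were lower at any fold in 6 of 8 tested cases, and 0 were higher. The piRNA pathway had 5 of 8, recombination 3 of 6 and the germ cell regulators 4 of 9, beside 23.7% of all tested genes. With median centring the counts of lower genes were 3 of 8, 5 of 8, 3 of 6 and 1 of 9 in the same order. Those of higher genes were 1, 2, 3 and 3, in a setting where 8.74% of all tested genes were lower and 54.5% higher. The order of the roles thus depended on the normalization, and the difference between roles was not tested. The median log2 ratio of the 9 genes was -0.30, and it was -0.28 on array 1 and -0.32 on array 2. *Smc1b* encodes the meiosis-specific SMC subunit of cohesin. Its log2 ratio was -0.75 on array 1 and -0.99 on array 2. Its normalized log2 intensity was 9.38 and 9.23 in the control channels and 8.63 and 8.24 in the depleted channels, so that the conditions did not overlap. The mean of -0.87 ± 0.17 (SD, n = 2) corresponds to 54.7% of the control level, with an adjusted p of 0.000154 by limma.

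The other meiotic cohesin subunits were lower by less. *Rec8*, the kleisin that replaces the mitotic one in meiosis, had log2 ratios of -0.29 and -0.37, and *Stag3*, the meiotic STAG subunit, had -0.27 and -0.32. Their adjusted p-values by limma were 0.00172 for *Rec8* and 0.00212 for *Stag3*. All 3 subunits were negative on both arrays, and *Smc1b* by the most. With median centring *Rec8* was at -0.09 and *Stag3* at -0.10, and neither passed the test (adjusted p = 0.256 and 0.198 by limma). The mitotic cohesin genes, examined as a list of 5, showed 2 lower, 0 higher and 0 past 1.5-fold, with a median of -0.10. With median centring 0 were lower and 3 of 5 higher, beside 54.5% of all tested genes, and their median of 0.16 was -0.02 relative to that of all genes. The lowest of these was *Smc3*, the SMC subunit that mitotic and meiotic cohesin share, at -0.32 and -0.39, and the highest was *Stag1* at -0.07 and 0.09.

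*Syce2*, a protein of the central element of the synaptonemal complex, had log2 ratios of -0.53 and -0.57. Its normalized log2 intensity fell from 14.11 and 14.15 in control to 13.58 in both depleted channels. The mean of -0.55 ± 0.03 (SD, n = 2) is 68.2% of control, with an adjusted p of 0.000202 by limma, and lies just under 1.5-fold, whereas with median centring it was -0.26. *Sycp3*, a main component of the lateral elements, was similar in size and had -0.47 on array 1 and -0.48 on array 2, with an adjusted p of 0.000336 by limma, and -0.28 as a mean with median centring. The *Sycp3* intensity was 10.17 and 10.12 in control and 9.71 and 9.64 in depleted cells. Both genes thus differed between conditions by many times the spread between the arrays.

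*Hormad1*, an axis protein that promotes homolog pairing and break formation, was measured by 2 probes. The brighter gave -0.29 and -0.14 and the other gave -0.13 and -0.18, so that the probes had the same sign and a similar size. With median centring the brighter probe had -0.07 and did not pass the test (adjusted p = 0.419 by limma). The remaining genes of this role did not pass the test. *Syce1*, also of the central element, had -0.14 and -0.11 with an adjusted p of 0.0574 by limma. It passed as lower with processed signals (adjusted p = 0.0406) and with both channels required above background (adjusted p = 0.0474), which made 7 of 8 genes of this role lower. *Sycp1*, the transverse filament that bridges the axes, had 0.21 on one array and -0.12 on the other, and the 95% interval of its mean of 0.05, from -0.15 to 0.24, includes 0. With median centring it was at 0.17 (adjusted p = 0.0303 by limma), which is -0.02 relative to the median of all genes. *Sycp2*, the partner of *Sycp3* in the lateral element, was not above background and read -0.19 and 0.14.

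**Figure D2:**
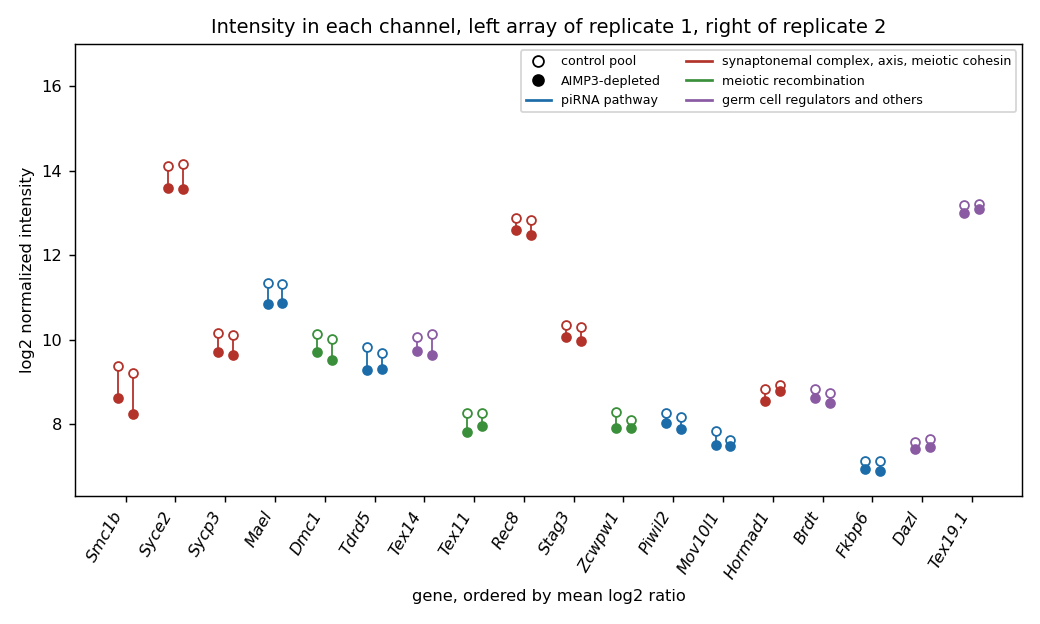
Normalized log2 intensity (y axis) of the 18 genes that were lower at any fold, ordered by mean log2 ratio, in the control pool (open circles) and AIMP3-depleted cells (filled circles), with the array of replicate 1 on the left of each pair and that of replicate 2 on the right. In each of the 18 genes the depleted channel lies below the control channel on both arrays, from -0.87 in *Smc1b* to -0.15 in *Tex19.1* as mean log2 ratio, and heights of different genes come from different probes and are not comparable.

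Of 12 further genes of these structures that are not among the 39, 6 could be tested. At any fold 5 of these were lower and 0 higher, with a median of -0.24 over those well above background, and with median centring 2 were lower and 1 higher. *Syce3*, another protein of the central element, was the lowest at -0.57 and -0.53 (adjusted p = 0.000198 by limma). *Trip13*, the ATPase that removes HORMA-domain proteins from the axis, was the highest tested gene at -0.06 and 0.02.

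The piRNA pathway was split, with 5 of 8 tested genes lower and 3 not passing the test. The median log2 ratio of the 12 genes on the array was -0.13, and it was -0.23 for the 7 genes well above background in all channels. Over the 8 tested genes it was -0.22, against -0.54 with processed signals, -0.50 with the deposited table and -0.16 with median centring. *Mael*, a protein needed for transposon silencing in germ cells, had -0.49 on array 1 and -0.45 on array 2. Its normalized log2 intensity was 11.35 and 11.32 in control against 10.86 and 10.87 in depleted cells. The mean of -0.47 ± 0.025 (SD, n = 2) is 72.3% of control, with an adjusted p of 0.000357 by limma, and with median centring it was -0.26.

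*Tdrd5*, a Tudor-domain protein of the germ granules, had 2 probes that were both lower. The brighter read -0.54 and -0.37 and the other -0.36 and -0.24. The fall was thus seen by both probes, and its size differed between the arrays. With median centring the mean of the brighter probe was -0.28. *Piwil2*, a PIWI protein that binds piRNAs, had -0.23 and -0.30, and *Mov10l1*, the helicase that starts piRNA processing, had -0.33 and -0.13. *Fkbp6*, a co-chaperone with a role in piRNA loading, had -0.18 and -0.23 at an intensity close to background. These 3 dim genes had adjusted p-values between 0.00375 and 0.0187 by limma, and all were lower on both arrays. With median centring *Piwil2* was at -0.16.

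Other tested piRNA genes were close to 0 after loess. *Ddx4*, the helicase also called VASA, had 0.05 on both arrays and was the highest tested gene of this role. *Rnf17*, a Tudor-domain protein, had -0.02 and 0.00, and *Tdrkh*, which anchors PIWI proteins at mitochondria, had -0.06 and 0.09. Their 95% intervals were -0.05 to 0.16 for *Ddx4*, -0.11 to 0.10 for *Rnf17* and -0.11 to 0.15 for *Tdrkh*, so a log2 change of the size of *Mael* lies outside each. With median centring *Ddx4* was at 0.24 and *Rnf17* at 0.17, with adjusted p-values of 0.00157 and 0.0241 by limma, which relative to the median of all genes is 0.06 for *Ddx4* and -0.01 for *Rnf17*. The untested genes read -0.15 and 0.00 for *Tdrd1*, 0.14 and 0.12 for *Tdrd6*, -0.24 and -0.14 for *Tdrd9*, and 0.05 and 0.01 for *Asz1*. These 4 are Tudor-domain proteins or, for *Asz1*, a mitochondrial partner of the pathway, and their log2 intensities between 6.22 and 6.67 carry no order.

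In a list of 11 further piRNA genes, 5 of 8 tested genes were lower and 3 higher, beside 23.7% and 30.6% of all tested genes. After median centring 2 were lower and 3 higher, beside 8.74% and 54.5% of all tested genes. *Pld6*, the mitochondrial nuclease known as Zucchini, was lowered past 1.5-fold at -0.87 and -0.76 (adjusted p = 8.02e-05 by limma). The highest was *Tdrd7*, a Tudor-domain protein, at 0.53 and 0.56.

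Of 6 tested meiotic recombination genes, 3 were lower, 1 was higher and 2 did not pass the test. Over all tested genes 23.7% were lower and 30.6% higher. The median log2 ratio of all 7 recombination genes was 0.01. This median includes *Spo11*, which is below background, and was -0.14 for the 6 tested genes. Over these 6 it was -0.30 with processed signals, -0.26 with the deposited table and 0.00057 with median centring. With median centring 3 were lower and 3 higher, beside 8.74% and 54.5% of all tested genes. *Dmc1*, the meiotic recombinase that invades the homolog, was lower with each of its 3 probes. The brightest had -0.43 and -0.50, and the others -0.32 and -0.47 and -0.40 and -0.55. Its mean of -0.46 ± 0.051 (SD, n = 2) is 72.6% of control, with an adjusted p of 0.000434 by limma, and with median centring it was -0.27.

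*Tex11*, an X-linked gene whose product acts in crossover formation, had -0.45 and -0.32, and its other probe was below background. *Zcwpw1*, a reader of the histone marks that PRDM9 writes, had -0.38 and -0.20. *Prdm9*, the methyltransferase that sets the sites of meiotic breaks, was the only higher gene. It read 0.21 and 0.26 with the brighter probe, and had an adjusted p of 0.00544 by limma. The dimmer probe, well above background in only 2 of 4 channels, read 0.18 and 0.27. *Prdm9* was higher and *Zcwpw1* lower on both arrays, and with median centring *Zcwpw1* was at -0.19. The normalized log2 intensity of *Prdm9* was 7.41 and 7.40 in control and 7.62 and 7.66 in depleted cells, a low level.

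The remaining recombination genes were near 0 after loess. *Mei1*, needed for break formation, had 0.05 and 0.12, and *Tex15*, needed for repair of breaks and for transposon silencing in germ cells, had -0.01 and 0.03. Their adjusted p-values by limma were 0.167 and 0.891, and with median centring they were at 0.21 and 0.19 (adjusted p = 0.00474 and 0.0142), or 0.03 and 0.01 relative to the median of all genes. With loess kept and the background not subtracted, *Mei1* was at 0.14 and passed as higher (adjusted p = 0.0454 by limma). *Spo11*, which makes the breaks, was not above background and read 0.09 and -0.06. Among 20 other recombination genes, 15 were tested, 6 were lower and 0 were higher, with a median of -0.11, and with median centring 3 were lower and 2 higher. *Meiob*, a meiosis-specific protein that binds single-stranded DNA, was lowered past 1.5-fold at -0.71 and -0.65 (adjusted p = 0.000109 by limma), and the highest was *Mlh3*, a crossover factor, at 0.03 and 0.05.

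**Figure D3:**
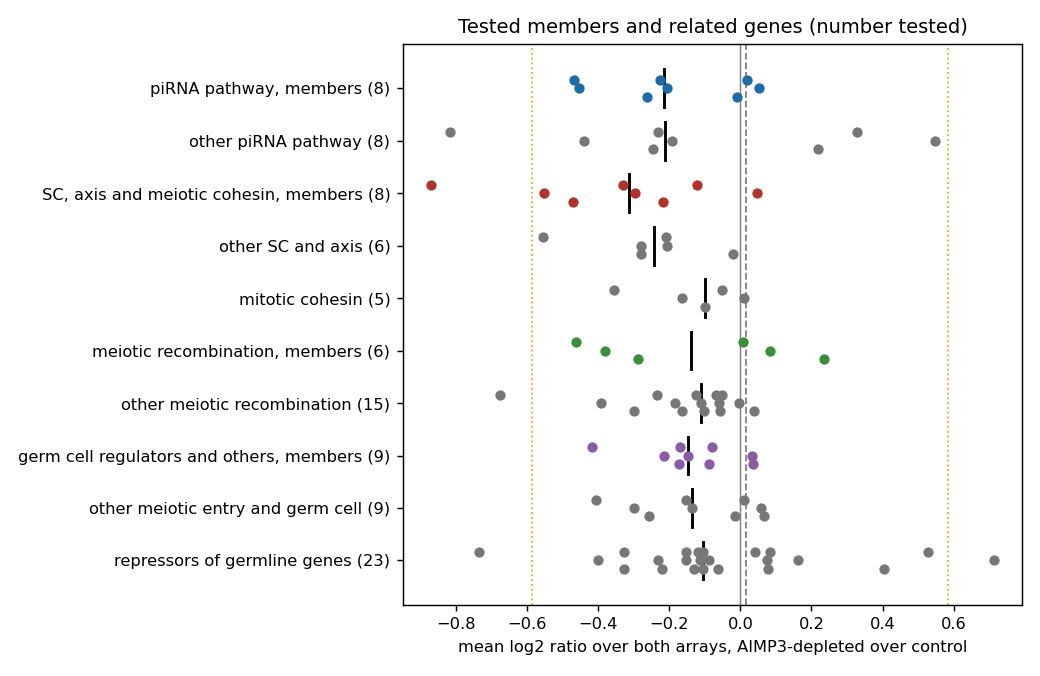
Mean log2 ratio over both arrays (x axis) of every tested gene in the 4 role groups (coloured) and in related lists (grey), with the number tested in brackets, black bars at each median, the dashed line at the median of all tested genes and dotted lines at 1.5-fold; SC is the synaptonemal complex. The medians of the role groups among tested genes lie at -0.22, -0.31, -0.14 and -0.15 for the piRNA pathway, the synaptonemal complex group, recombination and the germ cell regulators, each below the all-gene median of 0.02.

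Germ cell regulators and other germline genes were lower in 4 of 9 tested cases, and 0 were higher. With median centring 1 was lower (*Tex14*, at -0.23) and 3 of 9 passed as higher, beside 54.5% of all tested genes, namely *Sohlh2*, *Taf7l* and *Tex101*, at 0.16 to 0.17. These 3 and the other genes of this role, 9 of 9, lay below the median of all tested genes in that setting. The median log2 ratio of this role was -0.12 over all 10 genes and -0.15 over the 9 tested. With median centring that of the 9 was 0.10, which is -0.08 relative to the median of all tested genes. *Tex14*, which keeps the bridges between germ cells open, had -0.33 and -0.50. Its log2 intensity went from 10.06 and 10.14 in control to 9.72 and 9.64 in depleted cells, with a mean of -0.42 ± 0.12 (SD, n = 2) and an adjusted p of 0.00127 by limma. It stood apart from the other genes of this role, whose means lay between -0.21 and 0.06.

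*Brdt*, a testis bromodomain protein, had -0.21 and -0.22, whereas its other probe, not well above background in any channel, read 0.10 and 0.18. *Dazl*, an RNA-binding protein needed for germ cell development, had -0.17 on both arrays. *Tex19.1*, which limits transposons in germ cells and placenta and is active in pluripotent cells, had -0.19 and -0.11. The probe's specificity against the paralogue *Tex19.2* was not tested. These 3 falls were small, between 1.11-fold and 1.16-fold. With median centring none of the 3 passed the test, and *Brdt* was at -0.07, *Dazl* at -0.13 and *Tex19.1* at 0.10. *Dazl* also did not pass without background subtraction (adjusted p = 0.0733 by limma), nor *Tex19.1* with processed signals or the deposited table (adjusted p = 0.0635 and 0.100).

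*Stra8*, the gatekeeper of meiotic entry that retinoic acid induces, was among the genes that did not pass, with -0.06 and -0.12. *Sohlh2*, a transcription factor of early germ cells, had -0.01 and 0.07, and *Taf7l*, a germ cell TFIID subunit, had -0.06 and -0.10. *Tex101*, a germ cell surface glycoprotein, was the highest tested gene of this role at 0.06 and 0.01. *Stk31* had 0.01 on one array and -0.35 on the other, so that its mean of -0.17 rested on array 2. *Slc25a31*, the germ cell ADP/ATP carrier, was not above background and read -0.01 and 0.13.

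Of 16 further genes of meiotic entry and germ cells, 9 were tested, 4 were lower, 0 were higher and 0 passed 1.5-fold, and with median centring 2 were lower and 1 higher. The lowest was *Tuba3a*, a testis tubulin with a near-identical copy in *Tuba3b*, at -0.34 and -0.47, and the highest was *Mageb4* at -0.03 and 0.16.

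The repressors of germline genes were measured as a list of 24, of which 23 were tested. At any fold 9 were lower and 3 higher, beside 23.7% and 30.6% of all tested genes. Another 11 did not pass the test, and the list had a median of -0.11. With median centring 2 were lower and 12 of 23 higher, beside 8.74% and 54.5% of all tested genes, and their median of 0.16 was -0.02 relative to that of all genes. *Yaf2*, a PRC1.6 subunit related to *Rybp*, was raised past 1.5-fold at 0.63 and 0.80 (adjusted p = 0.000174 by limma). *Dnmt3b*, a de novo DNA methyltransferase, was lowered past 1.5-fold at -0.77 and -0.70 (adjusted p = 8.67e-05 by limma). *E2f6*, the factor whose core site was searched above, had 0.51 and 0.55, and *Mga*, the scaffold of PRC1.6, had -0.04 and -0.09. Of the other PRC1.6 subunits, *Pcgf6* had -0.35 and -0.30 and *L3mbtl2* -0.20 and -0.24, and both were lower (adjusted p = 0.00142 and 0.00688 by limma). Whether these differences bear on the germline genes was not tested.

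**Figure D4:**
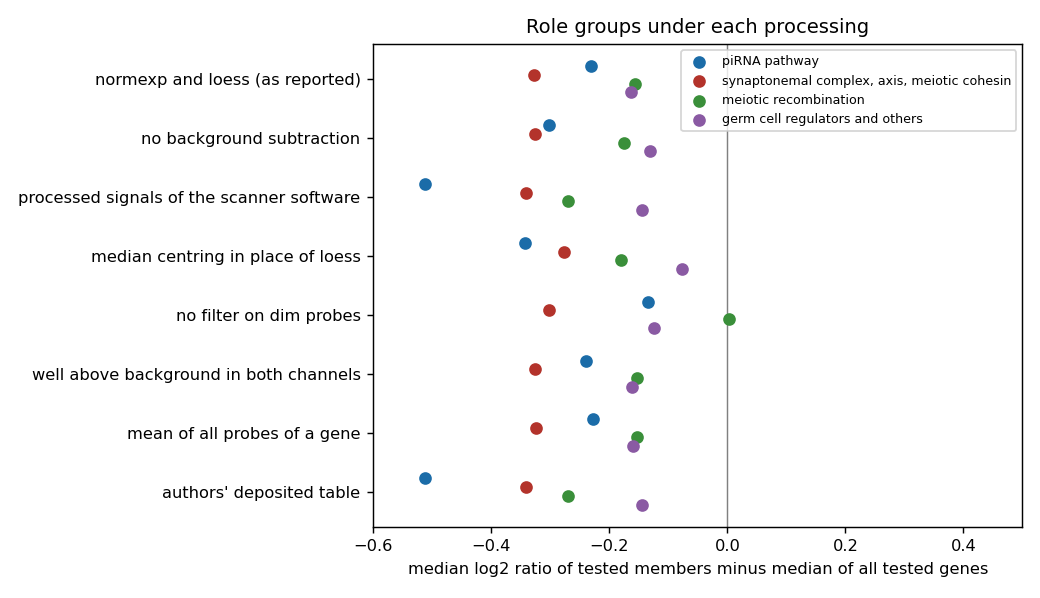
Median log2 ratio of the tested genes of each role group minus the median of all tested genes (x axis) under each processing (y axis). The synaptonemal complex group lies between -0.34 and -0.28 in each, whereas the piRNA group ranges from -0.51 with the processed signals to -0.13 without a filter on dim probes.

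The ratios of several dim genes were larger with the scanner's processed signals, in which both the background correction and the dye normalization differ. *Fkbp6* had a mean log2 ratio of -0.21 after normexp with its offset and loess and -0.82 with the processed signals, and *Mov10l1* had -0.23 and -0.59. *Tex11* had -0.38 and -0.65, *Piwil2* -0.26 and -0.54, *Zcwpw1* -0.29 and -0.54, and *Prdm9* 0.24 and 0.53. With loess kept and the background not subtracted, these genes moved less, to -0.31 for *Fkbp6*, -0.26 for *Mov10l1*, -0.39 for *Tex11*, -0.34 for *Piwil2*, -0.32 for *Zcwpw1* and 0.36 for *Prdm9*. With the processed signals 4 genes were lowered past 1.5-fold (*Smc1b*, *Fkbp6*, *Tex11* and *Mov10l1*), where 3.21% of all tested genes were lowered. *Dazl* was at -0.29 with the processed signals and *Tdrkh* at -0.03 in place of 0.02. The size of these ratios thus depended on the processing, and for *Tdrkh* and *Sycp1*, which are near 0, so did the sign.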

How the data were processed

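Gene expression was measured on 2-colour Agilent arrays. Per the file headers, the authors deposited the spot intensity and local background of each array, not normalized, from Feature Extraction 11.5.1.1 (the methods name another version), with processed signals and a log10 ratio by the same software. The value table deposited by the authors holds log2 ratios of AIMP3-depleted over control after GeneSpring, and it differed from the processed-signal ratio by a median of 0.04 per array. The methods describe the opposite ratio, control over test. All columns of per-sample values were used.

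Median signals were corrected with normexp (offset 50) and loess in limma 3.58.1 (R 4.3.3), flagged spots were dropped, and repeated spots were averaged per probe. Tested were 33009 of 55681 probes, and the brightest probe stood for a gene. Of the 24020 genes, 14972 had a name through their accession in RefSeq (GRCm38.p6), used for names and promoters only, because the array design used a different build. The mean ratio was tested against 0 with lmFit and eBayes (1 residual and 5.28 prior degrees of freedom), and p-values were adjusted over all tested genes by the Benjamini-Hochberg method. Intensities per channel were taken after loess and Aquantile scaling. The steps were tested on simulated data. The number of arrays limits the precision.

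Values were given for genes past 1.5-fold, for the highest and lowest gene of each role and related list, and, chosen after their values were seen, for the others. The rule also covered the marker lists, which were instead given by counts, summed levels and a few of their genes. The 39 genes, the gene lists and the motifs were chosen with earlier results of these data known, and no count from them is independent support. Both arrays lay on 1 slide, so batches could not be compared. Alternatives were no background subtraction, processed signals, median centring, other filters for dim probes, averaging a gene's probes, the deposited table, other thresholds, the methods' t-test and each replicate left out.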

Additional observations from a re-analysis of the deposited data

How the results depend on the processing

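No paired analysis was possible because the arrays form 1 group against 1 control pool. The number of lowered germline genes, 1 as reported, was 4 with the processed signals, 3 with the deposited table (3.21% and 2.57% of all tested genes, against 0.791%), 0 at a 2-fold threshold, 18 at any fold and 0 with the methods' t-test, which called 993 of all genes unadjusted and 0 after Benjamini-Hochberg adjustment. The number raised, 0, was 1 at any fold. With either replicate left out 1 array remains and the test cannot be run. *Smc1b* was then at -0.99 without replicate 1 and at -0.75 without replicate 2. The counts at any fold under alternatives were added after seeing the data. With the methods' t-test after adjustment the 18 lower genes became 0 and the 1 higher gene 0, where the count over all genes was also 0. By the same t-test with an unadjusted p under 0.05, 7 germline genes were lower at any fold. The 1 higher gene became 2 without background subtraction (*Prdm9* and *Mei1*) and 9 with median centring. The cause of these differences was not tested.

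The median of the piRNA genes, -0.13, was -0.21 with the processed signals, -0.20 with median centring, -0.23 with both channels above background and -0.22 with at least 1 (chosen after seeing the data), and -0.16 to -0.062 without 1 replicate. That of the synaptonemal complex group, -0.30, was -0.37 with processed signals, -0.10 with median centring and -0.33 with the deposited table, and -0.32 to -0.28 without 1 replicate. That of the recombination genes, 0.01 with *Spo11* included, which is below background, turned to -0.042 without background subtraction, -0.54 with processed signals, -0.15 with median centring, -0.50 with the deposited table, -0.14 with both channels or at least 1 channel above background, and -0.056 to -0.011 without 1 replicate. That of the germ cell regulators, -0.12, was -0.20 with processed signals, -0.16 with the deposited table and 0.021 with median centring, and -0.12 to -0.055 without 1 replicate. Over tested genes alone, the medians with median centring were -0.16, -0.10, 0.00057 and 0.10 in the same order.

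Among the 31 tested genes, signs turned only in genes that had not passed the test and in *Tex19.1*. With processed signals *Ddx4* was -0.015, *Tdrkh* -0.027, *Sycp1* -0.10 and *Tex15* -0.054. With the deposited table *Sycp1* was -0.060 and *Tex15* -0.015, and without background subtraction *Sycp1* was -0.00093. With median centring *Rnf17* was 0.17, *Syce1* 0.087, *Stra8* 0.15, *Taf7l* 0.16 and *Tex19.1* 0.10, all 5 still below the median of all tested genes, 0.18 in that setting. With 1 replicate left out, the ratios ran from -0.056 to 0.093 for *Tdrkh*, -0.018 to 0.0019 for *Rnf17*, -0.12 to 0.21 for *Sycp1*, -0.011 to 0.027 for *Tex15*, -0.0057 to 0.073 for *Sohlh2* and -0.35 to 0.0089 for *Stk31*.

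The changed genes of the related lists moved as follows. Other piRNA genes, 1 as reported, were 2 with processed signals, median centring or the deposited table, 0 at 2-fold and 8 at any fold. Mitotic cohesin genes, 0, were 2 at any fold. Other synaptonemal complex genes, 0, were 1 with processed signals or the deposited table and 5 at any fold. Other recombination genes, 1, were 0 at 2-fold and 6 at any fold. Other meiotic entry genes, 0, were 4 at any fold. Repressors, 2, were 1 with the mean of all probes or the methods' t-test, 0 at 2-fold and 12 at any fold. With either replicate left out the test cannot be run, so these counts could not be repeated by the same rule. Signal over background, between 2.68 and 3.31 in the median, limits what can be said of the dim genes.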

Other observations

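Markers of germ cells at other stages gave the following values. Of 10 primordial germ cell markers, all tested, 1 was lowered past 1.5-fold, 4 were lower and 2 were higher at any fold with an adjusted p under 0.05 by limma. The lowered one was *Dppa3*, a maternal factor that protects DNA methylation, at -0.65 and -0.60, and *Kit*, the receptor of stem cell factor, followed at -0.56 and -0.58. *Itgb3*, an integrin subunit, was the highest at 0.55 and 0.47. *Dppa3* and *Kit* are also expressed in mESCs, and the summed processed intensity of the 10 genes was 22866 to 24001 in control and 21270 to 21889 in depleted cells.

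Of 10 spermatid markers only 3 were above background enough to be tested, and *Acrv1*, *Odf1*, *Akap4* and *Pgk2* were not well above background in any channel. *Ldhc*, the testis lactate dehydrogenase, was the lowest at -0.35 and -0.41, and *Prm2*, a protamine, the highest tested at -0.03 and -0.08. Of 9 oocyte markers on the array 4 were tested, and *Zp2*, *Bmp15*, *Oosp1* and *Nlrp14* were not well above background. *Padi6*, an oocyte lattice protein, was the lowest at -0.25 and -0.38, and *Gdf9*, an oocyte growth factor, the highest at 0.43 and 0.46. Among the pluripotency markers, *Tdgf1* was lowered past 1.5-fold at -0.55 and -0.64.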
